A study of Mus musculus with 6 samples.

Results

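The genes described here are Zscan4c, Zscan4d, Zscan4f, Zfp352, Tdpoz3, Tdpoz4, Trim43b, Obox3, Tcstv1 and Tcstv3, which are known from the 2-cell embryo and from the rare 2-cell-like cells of mouse embryonic stem cell (ESC) cultures. They were taken from the deposited gene table by symbol, 10 rows of 19330. The table covered 6 mouse RNA sequencing libraries: control induced pluripotent stem cell (iPSC) lines 3 and 7, iPSC lines 5 and 13 labelled with palmitoylcarnitine (PC iPSC), 1 ESC library and 1 mouse embryonic fibroblast (MEF) library. Per the labels, ESC and iPSC grew in serum medium with leukemia inhibitory factor on mitomycin C-treated MEF feeders, MEF grew in serum medium without that factor, and the series compared PC iPSC, control iPSC and ESC. Palmitoylcarnitine is the form in which the fatty acid palmitate enters mitochondria. The ESC library is titled B6, and no label says which strain or line this is. The sources used here do not give genotype, sex, passage, the reprogramming method, or the dose and timing of palmitoylcarnitine. Each iPSC line is a single library, and nothing says that lines came from separate animals or cultures, so the spread behind each p-value is that between these 4 libraries and may be technical.

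Mouse embryos first transcribe their own genome in a major wave at the 2-cell stage. The double homeobox factor Dux can switch on a set of multicopy gene families then, and a small, changing minority of cells in ESC cultures passes through a state with the same transcripts. Zscan4 proteins, which carry a SCAN domain and zinc fingers, are the best known marks of that state and have been linked to telomere lengthening by recombination. In a bulk library, more cells in the state and more RNA per cell cannot be told apart.

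Libraries held 26.51 M to 27.99 M assigned reads, and all 10 members passed the expression filter that left 16435 genes for testing. Members with few or no reads in ESC and MEF passed it through the iPSC lines, and without any filter 9 members were called against ESC, as with it. Marker genes were read first to check the labels. All 8 pluripotency markers had reads in ESC and in the 4 iPSC lines. In the MEF library 5 of them, Dppa5a, Esrrb, Tdgf1, Utf1 and Zfp42, had no read and Nanog stood at 0.0482 RPKM (reads per kilobase of gene and per M library reads). The same library listed Pou5f1 at 158 RPKM and Sox2 at 88.2 RPKM, beside a summed level of 5641 RPKM over 8 fibroblast markers. The Pou5f1 and Sox2 values go against a label of plain fibroblasts and the labels give no account of them, so below MEF means the library labelled MEF.

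All members but Zfp352 have related copies among the rows of the gene table, and how alike the copies are bears on their values below. On GRCm38 (mm10), RefSeq places Zscan4c at chr7:11005745-11010547 (plus strand), Zscan4d at chr7:11161643-11166148 (minus strand) and Zscan4f at chr7:11397915-11402318 (plus strand). The stretches of RefSeq GRCm38.p6 promoter below are shown because 3 of them, from the Zscan4 genes, are nearly the same sequence while the other two, from Zfp352 and Obox3, share a TATAA box near the start but little else. Each is 130 bases, read 5′ to 3′ on the gene's strand and ending just before the annotated start. Capitals mark TATAA and a match to the motif bound by Dux, which is TGATT, any 2 bases, then ATCA.
Zscan4c: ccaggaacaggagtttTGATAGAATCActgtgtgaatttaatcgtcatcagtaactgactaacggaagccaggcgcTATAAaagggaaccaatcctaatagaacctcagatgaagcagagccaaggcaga
Zscan4d: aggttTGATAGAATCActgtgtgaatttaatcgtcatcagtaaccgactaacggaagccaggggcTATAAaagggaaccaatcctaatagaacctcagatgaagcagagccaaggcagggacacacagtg
Zscan4f: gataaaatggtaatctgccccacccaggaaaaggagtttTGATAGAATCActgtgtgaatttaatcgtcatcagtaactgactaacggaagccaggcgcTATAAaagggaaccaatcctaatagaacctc
Zfp352: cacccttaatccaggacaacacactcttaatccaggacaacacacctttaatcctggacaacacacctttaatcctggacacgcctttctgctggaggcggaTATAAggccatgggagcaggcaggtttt
Obox3: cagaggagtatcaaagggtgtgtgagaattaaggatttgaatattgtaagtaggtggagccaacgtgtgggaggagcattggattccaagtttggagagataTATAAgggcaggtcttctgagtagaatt

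These stretches span chr7:11005615-11005744 (plus), chr7:11166149-11166278 (minus), chr7:11397785-11397914 (plus), chr4:90218690-90218819 (plus) and chr7:15639778-15639907 (minus). RefSeq promoters of 300 bases (250 before the start and 50 after it) matched 6 of the 10 members, these 5 and Tdpoz4. The motifs were chosen with the sequences in view. On both strands, TATAA occurred in 5 of the 6 and in 25.5% of 27025 promoters. On the gene's own strand, with its first base 20 to 40 bases before the start, it occurred in Zscan4f, Zfp352 and Obox3, 3 of 6, and in 3.83% of all promoters. The Dux motif occurred, on the opposite strand, in Zscan4c, Zscan4d and Zscan4f and in 0.233% of all promoters. Those 3 matches are 1 sequence copied with its surroundings: over the 250 bases before the start, Zscan4c was 99.6% identical to Zscan4f and 97.1% identical to Zscan4d where they aligned. The letters CACGTG, the palindromic E-box, and TGCACAC, a motif bound by Zscan4, were not found in the 6 windows and occurred in 7.24% and 4.19% of all promoters. No match of one motif overlapped a match of another.

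The transcripts of several members are also alike. Over the aligned bases of their transcripts, taken from GENCODE M21 by RefSeq accession, Zscan4c and Zscan4f were 99.6% identical, Zscan4c and Zscan4d 97.5%, Trim43a and Trim43b 98.2%, Tcstv1 and Tcstv3 94.2%, and Tdpoz3 and Tdpoz4 78.5%. The sources used here give no read length, so windows of 50 and 100 bases were compared with every other annotated gene. Of the 100-base windows of Zscan4f, 89.5% occurred unchanged in another gene, most often the pseudogene Zscan4-ps2. The share was 72.8% for Zscan4c, 46.7% for Tdpoz3, 29.6% for Zscan4d, 20.9% for Trim43b and 19.9% for Obox3. It was 11.6% for Tdpoz4, 7.8% for Tcstv3, 6.4% for Tcstv1 and 0.6% for Zfp352. The table's header calls its reads uniquely assigned, so reads from such stretches were either left out or given to a single copy, and the file does not say which. Zfp352 is therefore the member whose own value is least exposed to its relatives, and the levels of single Zscan4 copies are uncertain. Copies such as Zscan4e, the Zscan4 pseudogenes ps1 to ps3, Tdpoz5 and Gm4982 were not analysed here.

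**Figure D1:**
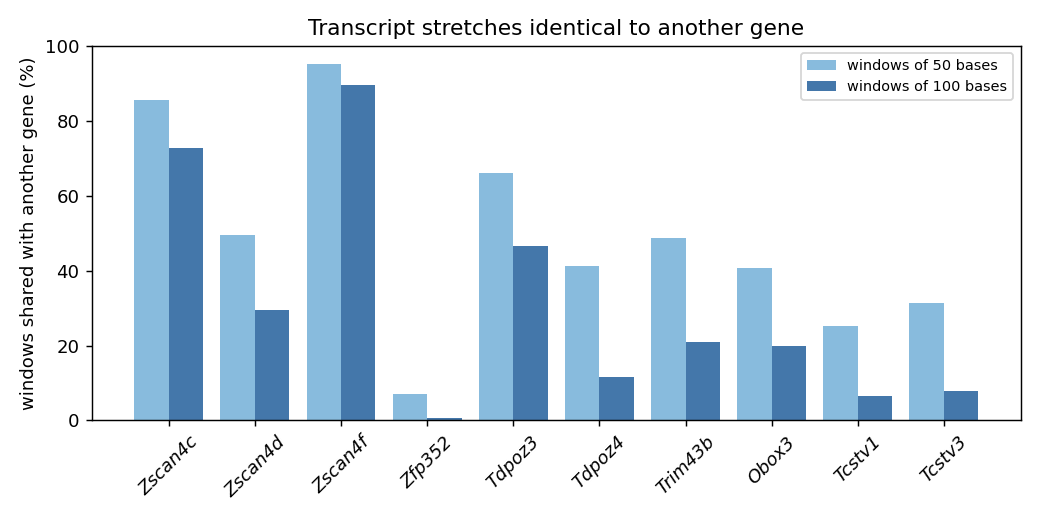
Share of each member's transcript windows of 50 bases (light bars) and 100 bases (dark bars) that occur unchanged in the transcript of another gene, in percent. Zscan4f reaches 89.5% at 100 bases and Zfp352 0.6%.

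The values of the 3 Zscan4 copies are given as the table has them, uncertain as to copy. Zscan4f stood at 7.17 RPKM in control iPSC 3, 13.6 in control iPSC 7, 9.78 in PC iPSC 5, 13.5 in PC iPSC 13 and 1.57 in ESC, with no read in MEF. Lines 7 and 13 were the high ones, 1 from each iPSC group, and the lowest iPSC line was still well above ESC. Zscan4c had 4.42 RPKM in control iPSC 3, 10.97 in control iPSC 7, 7.62 in PC iPSC 5, 10.7 in PC iPSC 13 and 1.09 in ESC, and again no read in MEF. Zscan4d was the lowest of the 3, at 1.75, 3.64, 2.03 and 3.79 RPKM in lines 3, 7, 5 and 13 and 0.791 in ESC, with no read in MEF. All 3 copies kept the same order of groups, with iPSC above ESC and ESC above MEF. Zscan4f was covered over 97.5% of its length even in ESC, where it had 80 reads. Over the 3 copies the summed level was 13.3, 28.2, 19.4 and 28.0 RPKM in lines 3, 7, 5 and 13, and 3.44 in ESC.

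The iPSC lines exceeded ESC for all 3 copies, and the excess passed the test for Zscan4c and Zscan4f. The iPSC mean of Zscan4c was 8.44 ± 3.08 RPKM (SD, n = 4), and its log2 fold change against ESC was 2.91 (SE 0.61, edgeR quasi-likelihood test, Benjamini-Hochberg adjusted p = 0.0331). Zscan4f, at 11.02 ± 3.12 RPKM (SD, n = 4), had a log2 fold change of 2.77 (SE 0.48, edgeR adjusted p = 0.0222). Zscan4d, at 2.80 ± 1.06 RPKM (SD, n = 4), did not pass, with a log2 difference of 1.78 (SE 0.62, edgeR adjusted p = 0.114). Left without control iPSC 3, it passed at 1.98 (SE 0.55, edgeR adjusted p = 0.00985; over all its alternatives adjusted p ran from 0.00985 to 0.166). ESC kept a measurable level of these genes, 12.9% of the iPSC mean for Zscan4c, 14.2% for Zscan4f and 28.2% for Zscan4d. When reads of the 5 Zscan4 rows in the table were summed, which settles only how reads were split among those rows and not reads shared with copies outside the table, the log2 fold change was 2.53 (SE 0.52, edgeR adjusted p = 0.0317).

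Zfp352 encodes a zinc finger protein first transcribed around the 2-cell stage (chr4:90218820-90225687, plus strand). It had 296 reads in control iPSC 3, 645 in control iPSC 7, 226 in PC iPSC 5, 621 in PC iPSC 13, 6 in ESC and none in MEF. In RPKM these were 4.74, 10.8, 3.61, 10.1, 0.0950 and 0. Lines 7 and 13 held more than double the level of lines 3 and 5, and reads covered 35.1% of the gene in ESC against at least 96.6% in the iPSC lines. The iPSC mean was 7.31 ± 3.66 RPKM (SD, n = 4), with ESC at 1.30% of it, and the log2 fold change against ESC was 6.20 (SE 1.10, edgeR adjusted p = 0.0232). The gap between iPSC and ESC was thus wider for this gene than for the Zscan4 copies, 76.4-fold in summed reads (exact 95% counting interval 35.0 to 208.4) against 7.7-fold for Zscan4c (6.1 to 10.0) and 7.0-fold for Zscan4f (5.6 to 8.9). Intervals on reads and floors cover counting error only. Low counts were even more often than odd, 62.4% to 67.5% of values from 1 to 20 reads. If both mates of a pair were counted, the intervals are too narrow and the floors too low.

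Tdpoz3 (chr3:93826020-93827117, plus strand) and Tdpoz4 (chr3:93796398-93797510, plus strand) belong to a family with TRAF and POZ domains, related to the ubiquitin ligase adaptor Spop. Tdpoz3 stood at 2.61 RPKM in control iPSC 3, 7.80 in control iPSC 7, 2.96 in PC iPSC 5, 7.71 in PC iPSC 13 and 0.0652 in ESC. That ESC value is 2 reads, and MEF had none. Tdpoz4 stood at 3.25 and 7.15 RPKM in control lines 3 and 7 and at 2.27 and 6.68 RPKM in PC lines 5 and 13, with no read in ESC or MEF. Both genes were near or below the limit of detection outside the iPSC lines. Tdpoz3 reads were 80.2 times more frequent in the iPSC lines than in ESC (exact 95% counting interval 22.1 to 663.9, edgeR adjusted p = 0.0347). The iPSC mean of Tdpoz4 was at least 50.2-fold higher than a floor of 3 reads in the ESC library (edgeR adjusted p = 0.0256). Its lowest iPSC line stood at 23.5 times that floor. A count of 0 was set to a floor of 3 reads, which is 0.107 counts per M reads in ESC and in MEF. The exact 95% upper limit of a count of 0 is higher, 0.132 per M reads in both, so folds given as "at least" hold for that floor only.

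Tcstv1 (chr13:119893387-119894785, minus strand) and Tcstv3 (chr13:120316862-120318261, plus strand) are small genes of the 2-cell-stage variable group. Tcstv3 had 6.76 RPKM in control iPSC 3, 12.8 in control iPSC 7, 9.41 in PC iPSC 5, 17.0 in PC iPSC 13 and 0.734 in ESC, with no read in MEF. Tcstv1 had 5.42, 11.2, 4.94 and 11.9 RPKM in lines 3, 7, 5 and 13 and 0.409 in ESC, also with no read in MEF. The pair again put lines 7 and 13 on top and ESC far below the lowest iPSC line. The iPSC mean of Tcstv3 was 11.5 ± 4.43 RPKM (SD, n = 4), and its log2 fold change against ESC was 3.91 (SE 0.67, edgeR adjusted p = 0.022). Tcstv1, at 8.36 ± 3.69 RPKM (SD, n = 4), had a log2 fold change of 4.30 (SE 0.87, edgeR adjusted p = 0.0314). ESC held 6.39% of the iPSC mean for Tcstv3 and 4.89% for Tcstv1, between the shares seen for Zfp352 and for the Zscan4 genes.

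Trim43b (chr9:89084624-89092835, minus strand) encodes a tripartite motif protein of the preimplantation embryo, and Obox3 (chr7:15625306-15639777, minus strand) a homeobox protein of a family first found in oocytes. Trim43b stood at 1.31 and 2.39 RPKM in control lines 3 and 7 and at 1.23 and 2.34 RPKM in PC lines 5 and 13, with no read in ESC and 5 reads (0.0790 RPKM) in MEF. Obox3 stood at 0.610 and 1.72 RPKM in control lines 3 and 7 and at 0.675 and 2.25 RPKM in PC lines 5 and 13, with no read in ESC or MEF. These were the lowest members in iPSC, Obox3 resting on 27 reads in control iPSC 3 and 98 in PC iPSC 13. Trim43b was at least 38.3-fold higher in iPSC than the ESC floor (edgeR adjusted p = 0.0169). Obox3 was at least 19.6-fold higher (edgeR adjusted p = 0.0488). Both bounds use the mean of the iPSC lines, and the lowest line stood at 25.9 times the floor for Trim43b and 9.1 times for Obox3. The Obox3 call was marginal and ended without PC iPSC 13 (adjusted p = 0.0539), with library totals in place of TMM scaling (0.0549) and with halved counts (0.0614), all by edgeR, within a range of 0.000165 to 0.0997 over its alternatives.

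**Figure D2:**
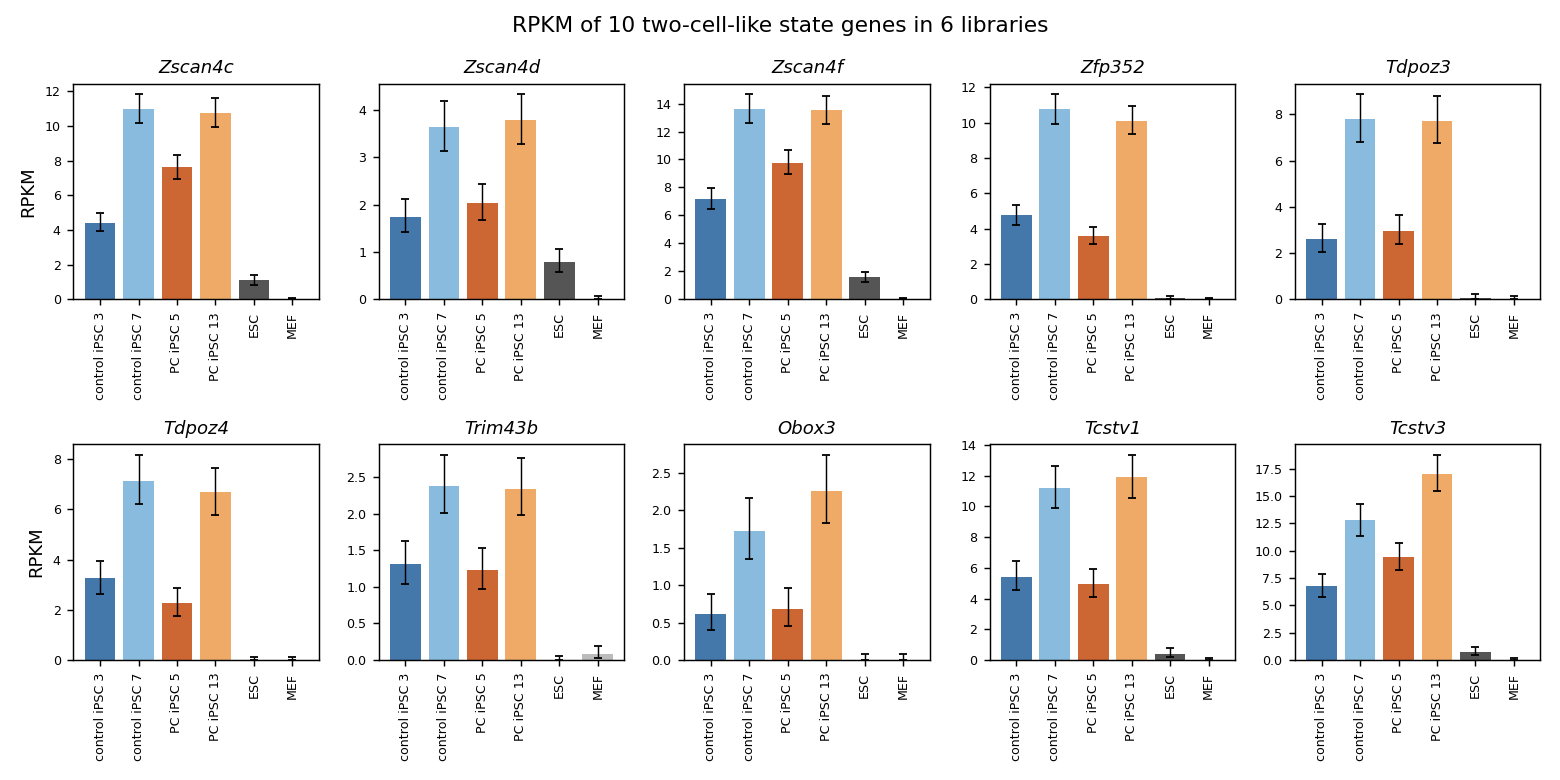
RPKM of the 10 genes in each of the 6 libraries, 1 panel per gene with its own axis; error bars are exact 95% counting intervals for the single library. Lines 7 and 13 are the tallest bars in each panel, ESC reaches 1.57 RPKM for Zscan4f, and in MEF Trim43b alone has reads.

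In all, 9 of the 10 members were called higher in iPSC than in ESC. Of the 16435 tested genes, 4.71% were called higher, 5.71% lower and 10.4% in either direction. The remaining member was Zscan4d. All 4 iPSC lines lay above ESC for all 10, which held for 37.3% of tested genes. The members' median log2 fold change was 4.30 with genes unread in ESC set at their bound, against 0.014 over all tested genes. By the number of reads, the 10 genes together took 58.48, 127.14, 69.66 and 129.76 reads per M library reads in lines 3, 7, 5 and 13 and 8.2 in ESC. The ESC library has no replicate and is assumed to vary like the iPSC lines. On log2(RPKM + 0.1) with limma the 9 calls were lost (adjusted p from 0.075 to 0.0997), as were nearly all calls of the comparison, 3 genes in place of 1713.

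**Figure D3:**
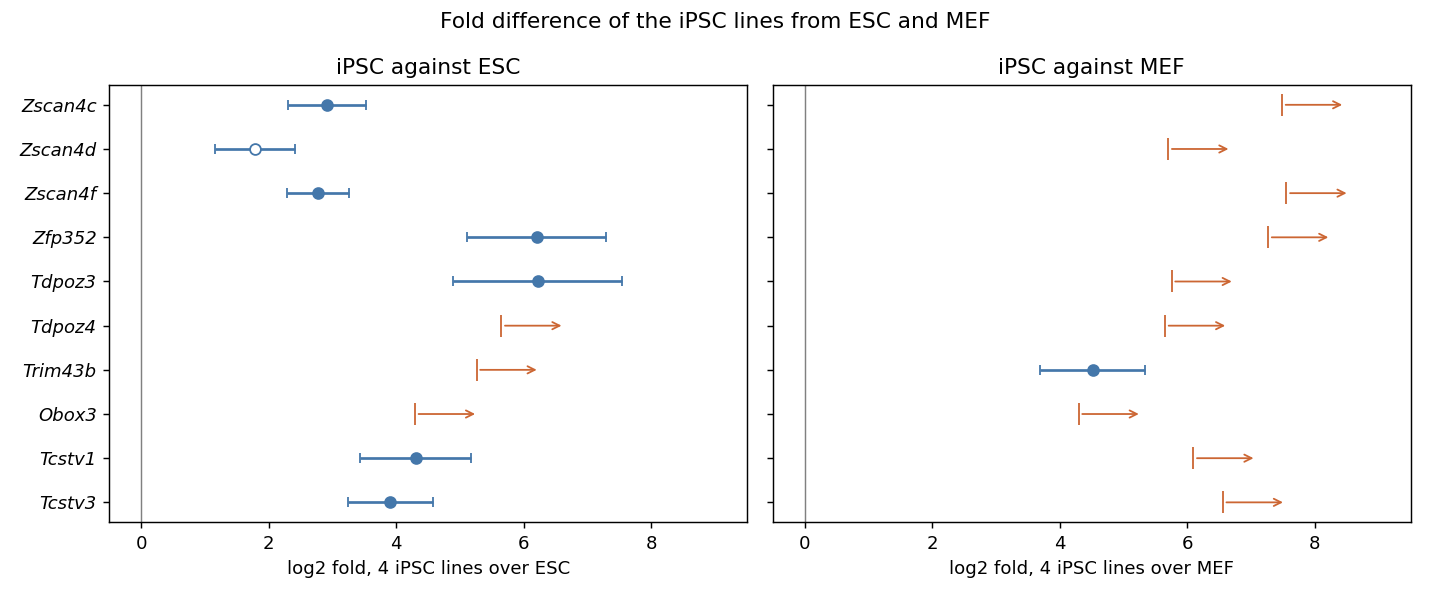
Log2 fold of the 4 iPSC lines over ESC (left) and over MEF (right). Points with bars are edgeR estimates with their SE, filled where the adjusted p is under 0.05 and open for Zscan4d, with Tdpoz3 resting on 2 ESC reads; arrows start at the lower bound against a floor of 3 reads where the single library had no read.

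Against the library labelled MEF, 10 of 10 members were called higher in iPSC, where 36.5% of tested genes were called higher, 31.6% lower and 68.1% in either direction. The 4 lines lay above MEF for all 10, as for 47.3% of tested genes. This comparison shares its iPSC lines with the one against ESC, so the pair is not independent. With no MEF read, Zscan4f was at least 188.0-fold, Zscan4c at least 179.3-fold and Zfp352 at least 154.1-fold higher in the iPSC mean. The bounds were lower where iPSC reads were fewer, at least 52.0-fold for Zscan4d and at least 19.6-fold for Obox3, and those of the other 4 members without MEF reads lay between 19.6-fold and 188.0-fold. Trim43b, the member with MEF reads, had a log2 fold change of 4.52 (SE 0.83, edgeR adjusted p = 0.00264). Adjusted p over the 10 ran from 0.000135 to 0.0092 by edgeR. The members' median with bounds was 5.93, against 0.151 over all tested genes.

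ESC and MEF were compared without a test, 1 library against 1. With at least 10 reads in ESC and at least a 2-fold gap, 5 members were higher in ESC, as were 30.0% of tested genes. They were Zscan4f (26.7-fold), Zscan4c (23.0-fold), Zscan4d (14.7-fold), Tcstv3 (6.0-fold) and Tcstv1 (3.3-fold), as observed ESC reads over the MEF floor of 3 reads. The counting error of the ESC reads is not in these folds and weighs most on Tcstv1, with 10 reads. So the ESC library held reads of the Zscan4 and Tcstv genes, while Zfp352 and Tdpoz3 fell to 6 and 2 reads and Tdpoz4, Trim43b and Obox3 to none.

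Between PC iPSC and control iPSC, the comparison the series was set up for, 0 of 10 members were called, and so were 0 of all tested genes (0%) by edgeR and by DESeq2. At an unadjusted p under 0.05 edgeR had 385 of the 16435 tested genes, none of them a member. With so small a share, 0 among 10 members says little. For 0 of the 10 did both lines of one group lie outside the range of the other, which occurred for 31.4% of tested genes. This follows from the order of the lines given below, with 1 high line in each group, and is not a separate result. The largest log2 difference was 0.42 for Tcstv3 (SE 0.42, edgeR adjusted p = 0.963), with PC lines at 13.2 ± 5.39 RPKM (SD, n = 2) and control lines at 9.76 ± 4.24 RPKM (SD, n = 2). The lowest was -0.23 for Tdpoz4 (SE 0.60, edgeR adjusted p = 0.979). The 95% intervals were wide and leave room for differences of either sign, from 0.63-fold to 1.93-fold for Zscan4f, from 0.36-fold to 2.89-fold for Tdpoz3 and from 0.37-fold to 4.21-fold for Obox3. The members' median log2 difference was 0.06, against 0 over all tested genes. Leaving out 1 line gave each member both signs: without control iPSC 7 all of the differences were above 0, and without PC iPSC 13 all were below 0. Without control iPSC 7, 309 genes were called in the whole table (285 higher in PC iPSC), 0 of them members.

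**Figure D4:**
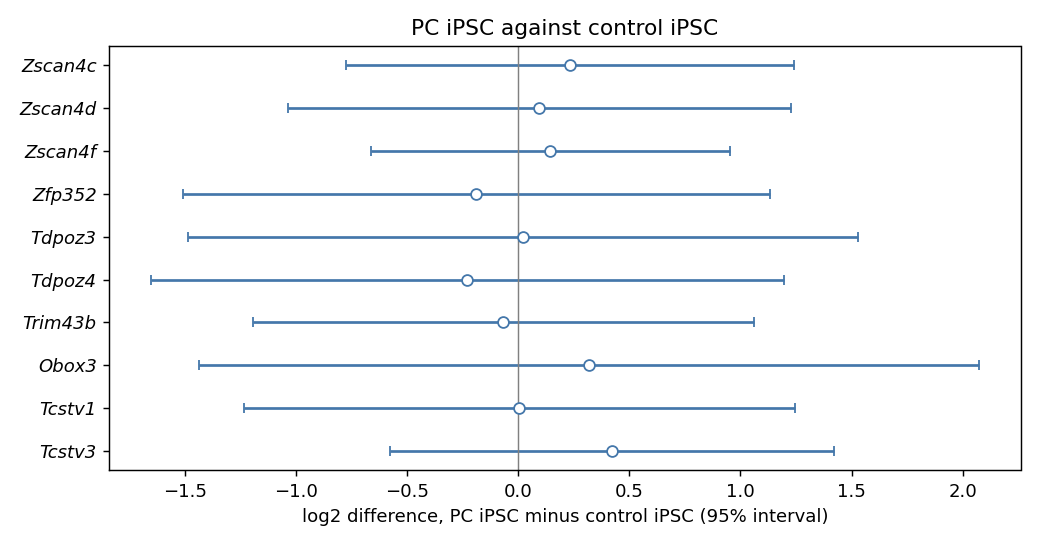
Log2 difference of PC iPSC minus control iPSC for each member, with its 95% interval from the edgeR model (2 lines against 2). Every interval spans 0, and the estimates lie between -0.23 and 0.42.

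Variation among the iPSC lines did not follow the PC and control labels. For all 10 members control iPSC 7 and PC iPSC 13 both lay above control iPSC 3 and PC iPSC 5, which held for 12.7% of tested genes. This split was read from the members' own levels, so it is a description and was not tested. The highest line exceeded the lowest by 1.9 times for Zscan4f, 1.94 for Trim43b and 2.17 for Zscan4d, and by 2.99 for Tdpoz3, 3.15 for Tdpoz4 and 3.69 for Obox3. Exact 95% counting intervals of lines 7 and 13 each stood clear of those of lines 3 and 5 for all 10 genes. Between themselves the high lines hardly parted: line 7 was higher for 6 genes and line 13 for 4, with intervals apart for Tcstv3 alone, where line 13 was higher.

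Below them the pair was less even. PC iPSC 5 exceeded control iPSC 3 for 6 genes, with intervals apart for Zscan4c, Zscan4f and Tcstv3, and control iPSC 3 exceeded PC iPSC 5 for 4, with intervals apart for Zfp352. So line 5 was the third highest for the Zscan4 genes, Tdpoz3, Obox3 and Tcstv3. It was the lowest of the 4 for Zfp352, Tdpoz4, Trim43b and Tcstv1. Fibroblast markers did not put lines 7 and 13 above lines 3 and 5. Their summed level was 545 and 1136 RPKM in control lines 3 and 7 and 1252 and 1039 RPKM in PC lines 5 and 13. Library totals of lines 7 and 13, 26.51 M and 27.16 M, were slightly under those of lines 3 and 5. The part of fibroblast content or of library totals in the split was not tested.

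**Figure D5:**
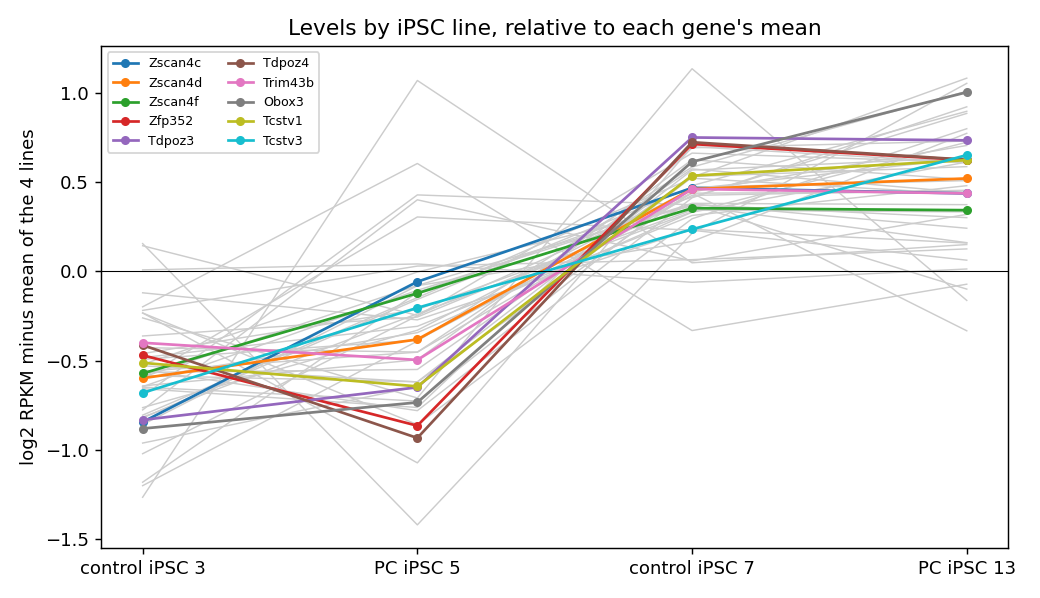
Log2 RPKM of each member in the 4 iPSC lines minus the mean of those 4 log2 values, in order of line number (coloured), with the tested genes of the wider 2-cell-like list in grey. Coloured points lie below 0 in control iPSC 3 and PC iPSC 5 and above 0 in control iPSC 7 and PC iPSC 13.

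Of the other rows of the same families, 7 were tested. Of these, 3 were called higher in iPSC than in ESC, Obox6, Trim43a and Zscan4a, beside 4.71% of all tested genes. The Obox family was dominated by Obox6, which stood at 51.4 RPKM in control iPSC 3, 63.0 in control iPSC 7, 46.6 in PC iPSC 5, 71.3 in PC iPSC 13, 12.8 in ESC and 0 in MEF. Its log2 fold change against ESC was 2.15 (SE 0.31, edgeR adjusted p = 0.0159), and Obox3 made up 1.4% to 3.6% of the reads of the 5 Obox rows in the iPSC lines. Obox1, Obox2 and Obox5 had at most 4 reads in a library and were not tested. Trim43a stood at 2.15, 6.47, 5.01 and 6.80 RPKM in lines 3, 7, 5 and 13 and 0.117 in ESC and rose by 5.36 on the log2 scale (SE 0.93, edgeR adjusted p = 0.0222), whereas Trim43c did not pass (1.16, SE 0.87, edgeR adjusted p = 0.407). Zscan4a, a transcribed pseudogene in RefSeq, passed at 2.37 (SE 0.50, edgeR adjusted p = 0.0343) and Zscan4b, at 4.15, 11.3, 6.66 and 12.01 RPKM in lines 3, 7, 5 and 13, did not (2.27, SE 0.68, edgeR adjusted p = 0.0794).

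Tdpoz1, with 1 read in ESC, and Tdpoz2, with none, did not pass against ESC (edgeR adjusted p = 0.0853 and 0.0508). For 7 of these 7 tested relatives, lines 7 and 13 lay above lines 3 and 5, as for 12.7% of all tested genes. Over aligned transcript bases Zscan4a was 98.0% identical to Zscan4c and Trim43a 98.2% identical to Trim43b. Reads may be shared between such copies, so the relatives are not independent support for the split. With the reads of each family summed, the log2 fold change against ESC was 6.88 for Tdpoz (SE 1.23, edgeR adjusted p = 0.0239), 4.76 for Trim43 (SE 0.75, edgeR adjusted p = 0.019), 4.07 for Tcstv (SE 0.69, edgeR adjusted p = 0.0218) and 2.18 for Obox (SE 0.32, edgeR adjusted p = 0.0167). Zscan4c, Zscan4d and Zscan4f held 61.9% to 65.9% of the reads of the 5 Zscan4 rows in the iPSC lines and 58.1% in ESC.

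Of a wider list of 55 other genes reported in 2-cell-like cells, 39 were tested. In iPSC against ESC 22 rose and 1 fell, beside 4.71% of all tested genes called higher and 5.71% lower. The median log2 fold change of the 39 was 3.03, against 0.014 over all tested genes. The list was chosen with earlier results of these data known. It also holds related copies such as Usp17la to Usp17le, so its counts are not independent support. Pramel7, of the preferentially expressed antigen in melanoma family, stood at 5.24, 11.01, 11.4 and 7.94 RPKM in lines 3, 7, 5 and 13 and 0.231 in ESC, and rose by 5.21 on the log2 scale (SE 0.66, edgeR adjusted p = 0.0125). Gm4971 rose by 4.80 (SE 0.62, edgeR adjusted p = 0.0125) and the transporter gene Abcb5 by 4.78 (SE 1.11, edgeR adjusted p = 0.0431). Ubtfl1, with 2 ESC reads, stood at 0.837, 1.83, 0.793 and 2.44 RPKM in lines 3, 7, 5 and 13 and passed as well (edgeR adjusted p = 0.0381). The member of the list that fell was Zfp750, an epidermal differentiation factor, at 5.73 RPKM in ESC and 0.974 to 1.86 RPKM in iPSC (log2 change -2.25, SE 0.29, edgeR adjusted p = 0.0125). Against MEF 34 rose and 1 fell, beside 36.5% of all tested genes called higher and 31.6% lower. Between PC and control iPSC 0 of 39 were called, as were 0 of all tested genes. For 32 of the 39, lines 7 and 13 lay above lines 3 and 5, as for 12.7% of all tested genes. Pramel7 was one that did not keep that order.

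Of 37 tested regulators of the state, which included chromatin repressors of Dux and of endogenous retroviruses, 2 rose against ESC and 0 fell, with a median of 0.005. That share is close to the 4.71% of all tested genes called higher. Zfp42 (Rex1) rose by 1.24 (SE 0.18, edgeR adjusted p = 0.0165) and Rif1, which is bound at telomeres and represses Zscan4 in mouse ESC, by 0.74 (SE 0.15, edgeR adjusted p = 0.0327). Dux, which is named here after its values were seen, stood at 1.52 RPKM in control iPSC 3, 2.37 in control iPSC 7, 1.19 in PC iPSC 5, 3.40 in PC iPSC 13, 0.336 in ESC and 0 in MEF. Dux had lines 7 and 13 above lines 3 and 5, as the members did. Its log2 difference from ESC of 2.61 did not pass (SE 0.78, edgeR adjusted p = 0.08). Among the 37 regulators, lines 7 and 13 lay above lines 3 and 5 for 6, a share near the 12.7% of all tested genes. Of 10 tested telomere and recombination genes, Rif1 rose, and Dmc1, the meiotic recombinase, fell by 0.85 (SE 0.19, edgeR adjusted p = 0.0394), while lines 7 and 13 were on top for 0 of 10. Their median was -0.12.

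Markers of other cells were read beside these results. In iPSC against ESC, 4.71% of all tested genes were called higher and 5.71% lower. Fibroblast markers, which feeder cells would also carry, rose in iPSC against ESC for 6 of 8 genes (median 1.74), with Lum at 2.65 (SE 0.44, edgeR adjusted p = 0.0214), Postn at 2.39 (SE 0.57, edgeR adjusted p = 0.047), Col3a1 at 1.98 (SE 0.36, edgeR adjusted p = 0.0247) and Col1a2 at 1.82 (SE 0.38, edgeR adjusted p = 0.0327) on the log2 scale. Their summed level was 288 RPKM in ESC and 545 to 1252 RPKM in the iPSC lines. The members were nearly unread in the library labelled MEF, with 5 reads over all 10. The part of feeder cells in the members' difference was not tested. Of 7 tested germ cell and meiosis markers, 2 rose, Sycp1 of the synaptonemal complex by 2.67 (SE 0.29, edgeR adjusted p = 0.00882) and the germ cell RNA-binding gene Dazl by 2.48 (SE 0.56, edgeR adjusted p = 0.0397), and their part in the members' difference was not tested (median of the 7, 0.015). Of 8 pluripotency markers Zfp42 alone rose (median -0.33), and of 7 oocyte and cumulus (median 0.36) and 7 trophoblast markers (median -0.15) 0 were called. The oocyte and the trophoblast marker of highest mean level over the 6 libraries were Ooep at 60.2 to 99.3 RPKM in iPSC and 67.9 in ESC, and Krt8 at 18.6 to 36.1 RPKM in iPSC and 38.0 in ESC.

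The genes whose levels ran most like the summed Zscan4c, Zscan4d and Zscan4f level were Rtca, Nelfa, Exosc9, Fank1 and Gm13212, with Pearson correlations of 0.9997, 0.9997, 0.9987, 0.9987 and 0.9982 for log2(RPKM + 0.1) over the 6 libraries among 12618 genes. For Tdpoz4 they were Dio3 (0.9977), Tmem128 (0.9974), P2rx3 (0.997), Fam45a (0.9932) and Dcdc2c (0.9927). These are descriptions of 6 points of which ESC and MEF are low for all, and a pseudocount of 1 kept 1 of each set of 5, Fank1 and Dio3. Only members and their family rows were left out of the search. Nelfa is also among the regulators above, and Dcdc2c is in the wider list. The slopes differed: Nelfa stood at 41.5, 49.1, 44.6 and 50.4 RPKM in lines 3, 7, 5 and 13, 29.1 in ESC and 10.9 in MEF, a far narrower range than the Zscan4 sum. Dio3, a thyroid hormone deiodinase, stood at 4.30, 5.85, 2.93 and 5.999 RPKM in the same lines, 0.535 in ESC and 0.592 in MEF.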

How the data were processed

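Per the file headers, the authors deposited uniquely assigned read counts, the RPKM and the covered share of each gene's length. Per the submitters' processing notes, CASAVA 1.8.2 and mm10 were used, with no role given, and the sources used here give no aligner, counter, read length or strand use. Without strand, reads of antisense partners cannot be told apart. The deposited RPKM values could be recomputed from counts, length and total within 1e-6 for all but 93 genes, 0 of them members.

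Counts were tested over the whole table with edgeR 4.0.16 in R 4.3.3 (quasi-likelihood test, TMM, default filter) over 4 group means, with 2 residual and 4.75 prior degrees of freedom. P-values were adjusted by Benjamini-Hochberg across the 16435 genes that passed, and called under 0.05. DESeq2 1.42.0, limma 3.58.1, other filters and scalings, summed families and left-out lines were alternatives. A floor of 3 reads per library stood for 0. Genes unread on one side are given by that bound in place of a fitted fold. The bound takes the reads of the other side as observed, for iPSC the mean of the lines, without their counting error.

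Members and lists were chosen with earlier results of these data known. The members and their family rows are named in full, and of other lists up to 4 called genes of largest change, then the highest where fewer than 2 were called. For similar patterns the 5 highest correlations among genes with mean RPKM of at least 1 are named.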

Additional observations from a re-analysis of the deposited data

How the results depend on the processing

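The numbers of the lines (3 and 7, 5 and 13) are not shared between groups. No paired analysis was possible because the groups share no replicate number. Single ESC and MEF libraries, few low reads and uncertain copies limit all values. In the fits with families summed, 9 members are represented by their family's sum. Against MEF, all 119 values, 9 of them such sums, kept their direction and call, and 9078 to 11469 genes were called. Against ESC none of the 119 values, again with 9 sums, changed sign. Of them 12 lost the call, and 2, the Zscan4 sum in place of Zscan4d and Zscan4d without control iPSC 3, gained it, and the cause was not tested. On log2(RPKM + 0.1) with limma, 3 genes and 0 members were called. Leaving out 1 line gave 1781 to 2873 called genes (2873 without control iPSC 3, 2734 without control iPSC 7) and 8 to 10 called members. DESeq2 called 1301 of 2352 genes higher (55.3%), against 774 of 1713 (45.2%). For PC against control iPSC, leaving out 1 line gave 0 to 309 called genes, the 309 without control iPSC 7 (285 higher), and 0 members. Of 109 values, 9 of them sums, 22 changed sign and 0 were called. With limma Tcstv1 was -0.021. The Tdpoz sum was -0.179, opposite in sign to Tdpoz3, and the Trim43 sum 0.268, opposite to Trim43b. Over left-out lines the log2 difference ran from -0.271 to 1.044 for Zscan4c, -0.458 to 0.73 for Zscan4d, -0.239 to 0.691 for Zscan4f, -1.156 to 0.531 for Zfp352, -0.866 to 1.03 for Tdpoz3, -1.247 to 0.458 for Tdpoz4, -0.64 to 0.437 for Trim43b, -0.834 to 1.257 for Obox3, -0.8 to 0.633 for Tcstv1 and -0.104 to 0.96 for Tcstv3. With a mean RPKM of at least 1, Obox3 was not tested.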
